A study of Arabidopsis thaliana with 8 samples.

Results

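Accessible chromatin regions (ACRs) that lie over non-coding RNA genes were followed through germination of Arabidopsis thaliana. An ACR was taken when its summit, the position of strongest signal, fell in an exon of an annotated non-coding RNA (lncRNA, antisense RNA, miRNA, snoRNA, snRNA, tRNA, rRNA or other non-coding RNA) and in no coding sequence or UTR of a protein-coding gene. Of 30223 ACRs, 649 met this rule, over 632 of the 5104 annotated non-coding genes. Accessibility was measured by ATAC-seq, in which a transposase cuts open DNA, in Col-0 wild-type plants at 4 stages with 2 libraries each. The stages were the dry seed (DS) and seeds that were stratified and then kept in continuous light in liquid medium, at 22 °C, for 6 h (L6), for 26 h (L26) or for 57 h (L57), all of the same genotype. By the labels, germinating seeds were pressed so that the embryos came free, and a sucrose step removed the seed coats ahead of nuclear isolation. How dry seeds and seedlings were handled was not given in the sources used here. The labels do not say whether separate cultures gave the 2 libraries of a stage. The p-values therefore rest only on how far libraries of the same stage differ over the ACRs, in part perhaps for technical reasons. Because whole tissue was used, fewer cells with an open region and less opening per cell cannot be told apart.

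Non-coding RNAs have several roles. tRNAs carry amino acids to the ribosome and are made by RNA polymerase III, which is recruited by short boxes inside the gene. snRNAs form the core of the spliceosome, the machine that removes introns, and snoRNAs guide the cutting and modification of ribosomal RNA. miRNAs guide ARGONAUTE proteins to complementary mRNAs and so lower their output. lncRNAs are long transcripts without a clear protein product, and a few are known to act on chromatin near the site where they are made, while most have no known role. ATAC-seq reports open DNA and not the RNA, and it carries no strand, so the opening of an antisense RNA and that of the gene it overlaps cannot be told apart.

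Most of the 649 ACRs lay over lncRNA genes, with 538 ACRs (82.9%) over 524 genes. A further 43 lay over tRNA genes, 14 over snRNA, 6 over snoRNA and 8 over miRNA genes, 2 over genes typed as antisense RNA and 38 over other non-coding RNAs, and 0 over the 4 annotated rRNA genes. Another 251 ACRs had their summit in a non-coding exon that also was a protein-coding exon and were left out by the rule. By position, 611 summits were intergenic, 28 lay in an intron of a protein-coding gene and 10 in a pseudogene. The promoter of a protein-coding gene (400 bp upstream to 100 bp downstream of its start) held 148 of the 649 summits (22.8%), against 9244 (30.6%) of all ACRs. In 420 ACRs the summit was within 200 bp of the 5′ end of the RNA. At tRNA genes, with a median length of 73 bases, this held for all 43, and 25 of the 43 also lay in a protein-coding promoter. tRNA and snRNA genes come in near-identical copies, and the authors removed poorly mapped reads, so the levels of single copies are uncertain.

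The members' sequences are shown where a short element is typical of their class. Motifs were searched within 150 bp of each summit on both strands. The upstream sequence element of plant snRNA genes, searched as CCCACATCG, was found in 5 of 6 snoRNA ACRs (83.3%) and 5 of 14 snRNA ACRs (35.7%), against 77 of all ACRs (0.255%). When the search covered the 150 bases before the annotated 5′ end and the RNA itself, 11 of 14 snRNA and 5 of 6 snoRNA genes had it on the strand of the RNA and 0 on the other strand. In 9 of these 16 genes it began 70 to 96 bases before the annotated 5′ end, and in 7 it lay inside a long annotated RNA. In 10 genes it was followed by TATAAA after 33 to 36 bases. The element is in capitals in the stretches of the snRNA and snoRNA genes whose ACRs changed most, written on the strand of the RNA with their TAIR10 positions.
U1.4 snRNA, chr5:8973014-8973043: atCCCACATCGctagactagaaacaatgac
U1.9 snRNA, chr5:9494637-9494666: gtCCCACATCGcttagatccaaaataatga
U12 snRNA, chr1:22603043-22603072: gtCCCACATCGgaactataactcgttggag
U4atac snRNA, chr4:9096286-9096315: gtCCCACATCGggagttttagaggagggta
U3B snoRNA, chr5:21888226-21888255: ctCCCACATCGctcaaatctaaacaaatct
SNOR105 snoRNA, chr1:10151843-10151872: gtCCCACATCGtttaggtagagatagtgat
SNOR108 snoRNA, chr5:16598702-16598731: gtCCCACATCGcttacgtagaatagtaaga

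The B box of tRNA genes, an internal element read by RNA polymerase III, was searched as GTTCGANNC. It matched in 35 of 43 tRNA ACRs (81.4%) and in 3.01% of all ACRs. The 35 stretches around it fell into 26 distinct sequences, and 7 of the 8 tRNA-Gly genes shared the same stretch. The tRNA-Gly stretch is shown because the tRNA results below rest largely on these genes, beside 2 tRNA genes with other time courses, with the B box in capitals.
tRNA-Gly AT1G60580, chr1:22313415-22313444: acagacccggGTTCGATTCccggctggtgc
tRNA-Ser AT5G65445, chr5:26157190-26157219: tcccgcgagaGTTCGAATCtctcaggcgac
tRNA-Glu AT1G75570, chr1:28373490-28373519: agagacccggGTTCGAGTCccggcaacgga

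The G-box, CACGTG, is the core site of many bZIP and bHLH transcription factors, including those of abscisic acid and light responses. It was found in 115 of 538 lncRNA ACRs (21.4%) and in 3696 of all ACRs (12.2%). The stretches shown, with the G-box in capitals, come from 4 lncRNA ACRs whose accessibility changed most between stages.
AT1G09633, chr1:28740149-28740178: caaaattagaaaCACGTGgctagaggtgaa
AT3G09525, chr3:22555934-22555963: tcggtacgaagaCACGTGtcttctcaaacc
AT5G07805, chr5:21024069-21024098: aaacatgtaatcCACGTGgtcgtatgggag
AT1G07197, chr1:16560976-16561005: gaaattcacacaCACGTGgcttctaagtat

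The 8 miRNA genes give 11 annotated mature miRNAs with 11 distinct seeds, so no 2 of them share a seed. The mature sequences of 4 of the genes described below are shown, to make plain that their seeds differ, with the seed (bases 2 to 8) in capitals.
miR8184: uUUGGUCUgauuacgaaugua
miR773a: uUUGCUUCcagcuuuugucuc
miR778: uGGCUUGGuuuauguacaccg
miR160a-5p: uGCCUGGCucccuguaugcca

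Depth was lower at the later stages, with total counts in ACRs per library between 1534759 (at L57) and 3734831 (in DS). The median count per library at the 649 ACRs was 96 and 99 in DS and 49 and 60 at L57, so a change of a given size is measured less precisely at L57. Levels are given as CPM, which are counts brought to the same depth in every library, with the authors' correction for trends with abundance. The median level of the 649 ACRs was 31.3 CPM (range 5.67 to 296.2), against 23.3 CPM over all ACRs. It was 85.6 CPM at snRNA, 40.9 at snoRNA, 33.4 at tRNA, 30.9 at lncRNA and 21.1 at miRNA genes. The 2 libraries of a stage correlated across the 649 ACRs with r between 0.938 and 0.972, which is a description since the ACRs share libraries.

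To find which regions opened or closed, each ACR was tested between stages with edgeR's quasi-likelihood test over all 30223 ACRs, and it was called at a Benjamini-Hochberg adjusted p under 0.05. At L6 against DS, 191 of the 649 ACRs were higher (29.4%) and 63 lower (9.71%), where 17.6% of all ACRs were called higher and 14.3% lower. At L26 against L6, 107 were higher and 80 lower (16.5% and 12.3%), where the shares over all ACRs were 8.71% and 7.91%. At L57 against L26, 44 were higher and 72 lower (6.78% and 11.1%), beside 7.53% and 6.19% of all ACRs. At L57 against DS, 192 were higher and 94 lower (29.6% and 14.5%), beside 17% and 12.2% of all ACRs. Over all 4 stages together, 450 of the 649 (69.3%) differed, against 56.6% of all ACRs. The 4 comparisons are not independent, since each stage enters more than 1 of them with the same libraries. The test took the spread of an ACR largely from all ACRs together (median prior degrees of freedom 190.8, beside 4 from the libraries). Its p-values and the standard errors given below therefore follow this shared spread more than the scatter of an ACR's own libraries.

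**Figure D1:**
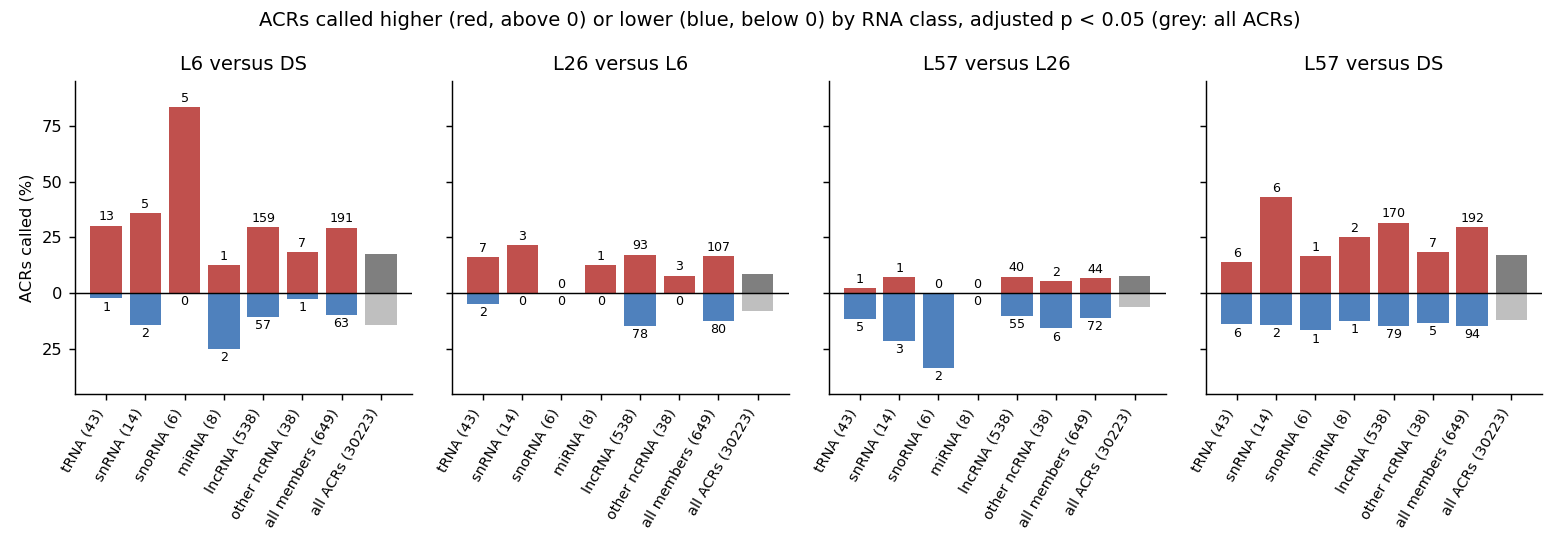
The share of ACRs called higher (red, above 0) and lower (blue, below 0) at an adjusted p under 0.05 is drawn for each RNA class and comparison, with the number of ACRs in parentheses and the number called at each bar. All ACRs are in grey, and the 2 antisense RNA genes are left out as a class of their own. At L6 versus DS the red bar of the 6 snoRNA ACRs reaches 83.3% and that of all members 29.4%, while the grey bar stands at 17.6%.

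The median log2 fold change of the 649 ACRs was 0.20 at L6 against DS, 0.03 at L26 against L6, −0.13 at L57 against L26 and 0.16 at L57 against DS, while that of all ACRs lay between −0.02 and −0.01. Further groups of ACRs were set beside them as a description. Among the 10376 other ACRs in no protein-coding promoter or exon, 23.3% were higher and 16.3% lower at L6 against DS, 12.6% and 9.99% at L26 against L6, 6.49% and 9.09% at L57 against L26, and 21.3% and 14% at L57 against DS. Among the 414 members above the median level of all ACRs, 34.1% were higher and 11.8% lower at L6 against DS, and among all 15111 ACRs above that level 20.2% and 18.2%. Whether the members differ from such ACRs was not tested. The split between higher and lower calls moved with the scaling. With offsets corrected for GC content, 134 were higher and 84 lower at L6 against DS (all ACRs 11.7% and 12.3%). With DESeq2's size factors, 95 were higher and 131 lower at L26 against L6 (all ACRs 8.92% and 10.7%), and with TMM factors 101 and 120. With TMM factors 36 were higher and 110 lower at L57 against L26 (all ACRs 7% and 8.53%), and 162 were higher and 119 lower at L57 against DS. Single libraries also moved these counts by over 1.5 times. Without DS replicate 1, 124 were higher at L6 against DS (all ACRs 11%), and without L26 replicate 2, 58 were higher at L26 against L6 (all ACRs 5.12%) and 24 at L57 against L26 (all ACRs 4.34%). At L26 against L6, 66 were higher without L6 replicate 1 (all ACRs 5.32%) and 67 without L6 replicate 2 (all ACRs 5.34%). Without L57 replicate 1, 21 were higher and 27 lower at L57 against L26 (all ACRs 3.35% and 2.5%), and without L57 replicate 2, 21 and 36 (all ACRs 3.47% and 2.62%).

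By the stage of the highest mean level, 124 of the 649 ACRs (19.1%) peaked in DS, 180 (27.7%) at L6, 194 (29.9%) at L26 and 151 (23.3%) at L57. Of all ACRs, 29.1% peaked in DS, 24.7% at L6, 20.7% at L26 and 25.5% at L57. Among the other ACRs in no protein-coding promoter or exon, these shares were 30.2%, 23.6%, 25% and 21.2%. Of the summed CPM, the 649 ACRs held 2.73% and 2.75% in the DS libraries, 3.06% and 3.02% in those of L6, 3.07% and 3.05% in those of L26 and 2.84% and 2.88% in those of L57. The share was lowest in DS.

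At tRNA genes, accessibility was higher in 13 of 43 ACRs and lower in 1 at L6 against DS (30.2% and 2.33%, beside 17.6% and 14.3% of all ACRs). It was higher in 7 and lower in 2 at L26 against L6 (16.3% and 4.65%, beside 8.71% and 7.91%). At L57 against L26 it was higher in 1 and lower in 5 (2.33% and 11.6%, beside 7.53% and 6.19%). The median log2 fold changes were 0.24, 0.14 and −0.37 in these comparisons. At L57 against DS, 6 were higher and 6 lower (14% each, beside 17% and 12.2% of all ACRs) with a median of 0.11. The time course differed with position. Of the 18 tRNA ACRs outside protein-coding promoters, 15 had their highest mean level at L26 and 3 at L6. Of the 25 in protein-coding promoters, 8 were highest at L26. Outside promoters the calls were 7 higher and 0 lower at L6 against DS (median 0.50), 5 and 0 at L26 against L6 (median 0.39), and 0 and 5 at L57 against L26 (median −0.55). At an unadjusted p under 0.05, 10 were higher and 0 lower at L6 against DS, 8 and 0 at L26 against L6, and 0 and 11 at L57 against L26, and DESeq2's test called 2 and 0, 2 and 0, and 0 and 2. In promoters the calls were 6 and 1, 2 and 2, and 1 and 0, but 0 and 3 at L26 against L6 with TMM factors, 0 and 5 with DESeq2's size factors, and 1 and 3 at L57 against L26 with either. The difference between the positions was not tested. The signs of the 3 medians outside promoters were kept under every scaling tried. With GC-corrected offsets 4 were higher at L6 against DS, and with TMM factors 8 were lower at L57 against L26. Single libraries also decided several calls: without DS replicate 1, DS replicate 2, L6 replicate 1 or L6 replicate 2 the calls at L6 against DS were 3 higher, without L26 replicate 2 there was 1 higher at L26 against L6 and without L6 replicate 2 there were 2, and at L57 against L26 there was 1 lower without L57 replicate 1 and there were 2 lower without L57 replicate 2 or L26 replicate 2.

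**Figure D2:**
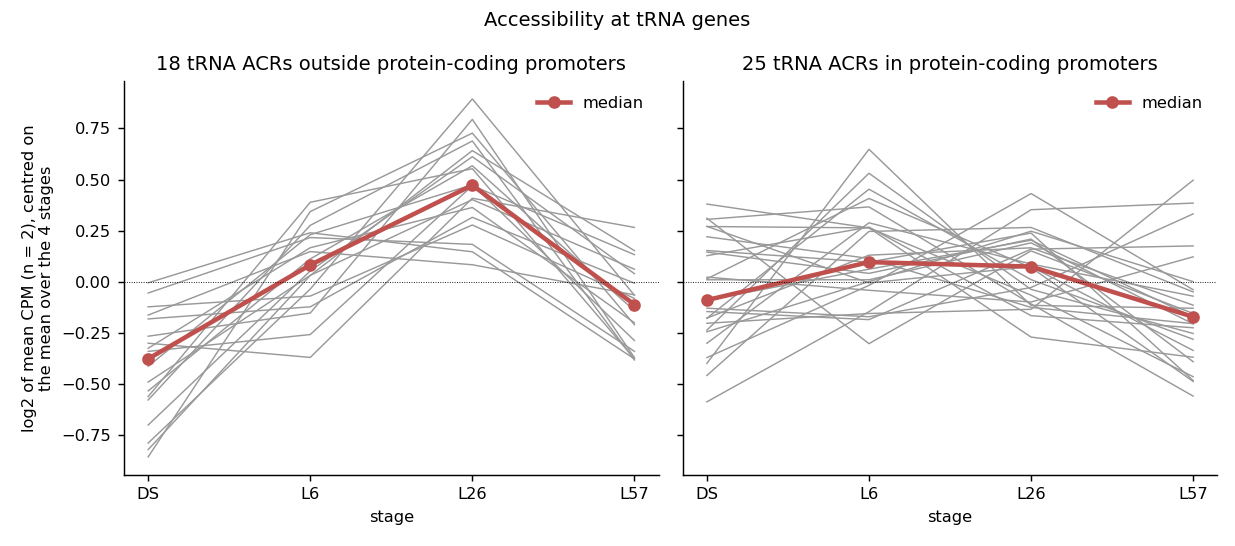
Each grey line is a tRNA ACR, drawn as log2 of its mean CPM per stage (n = 2 libraries) after subtracting its mean over the 4 stages, and the red line is the median. The median of the 18 ACRs outside protein-coding promoters has its highest point at L26 and its lowest in DS, and the 25 in protein-coding promoters stay closer to 0.

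Genes for tRNA-Gly made up 8 of the 43, 7 of them outside protein-coding promoters, and 7 of the 8 were highest at L26. AT1G60580 (chr1:22313238-22313696) had 11 and 12 CPM in DS, 18.5 and 20.3 CPM at L6, 34.8 and 39.2 CPM at L26 and 16.2 and 21.8 CPM at L57. Both L26 libraries lay above all the others and both DS libraries below them. It rose at L6 against DS by 0.75 ± 0.28 on the log2 scale (standard error, adjusted p = 0.0263), rose at L26 against L6 by 0.93 ± 0.24 (adjusted p = 0.00171) and fell by 0.95 ± 0.26 at L57 against L26 (adjusted p = 0.00681). AT1G06860 (chr1:2107073-2107638) had 18.6 and 20.4 CPM in DS, 30.8 and 35.0 CPM at L6, 39.4 and 57.7 CPM at L26 and 34.3 and 30.9 CPM at L57, with rises of 0.76 ± 0.22 at L6 against DS (adjusted p = 0.0042) and 0.58 ± 0.20 at L26 against L6 (adjusted p = 0.0278). Its L57 libraries were below both L26 libraries, at −0.60 ± 0.22 (adjusted p = 0.0544). Without a library these calls could be lost: for AT1G60580 the adjusted p was 0.161 at L6 against DS without DS replicate 1, 0.0573 at L26 against L6 without L26 replicate 2 and 0.133 at L57 against L26 without L57 replicate 1, and for AT1G06860 it was 0.0666 at L6 against DS without DS replicate 1 and 0.631 at L26 against L6 without L26 replicate 2. AT2G30450 (chr2:12974861-12976251) opened later, with 74.1 and 78.6 CPM at L26, against 38.6 and 50.4 CPM at L6 (0.78 ± 0.16, adjusted p = 0.000115). Over the 8 genes, 5 were higher at L6 against DS (62.5%), 3 higher at L26 against L6 and 3 lower at L57 against L26 (37.5% each). None was called the other way in these comparisons. Of all ACRs, 17.6% were higher at L6 against DS, 8.71% higher at L26 against L6 and 6.19% lower at L57 against L26.

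Other tRNA genes had other courses. The ACR of the tRNA-Ser gene AT5G65445, in the promoter of the ubiquitin protease gene UBP17, had 35.6 and 47.0 CPM in DS, 58.9 and 53.3 CPM at L6, 83.2 and 75.5 CPM at L26 and 75 and 87.2 CPM at L57, and it was higher at L57 than in DS by 0.98 ± 0.17 (adjusted p = 6.91e-07). The tRNA-Glu gene AT1G75570 went the other way at the first step, with 85.3 and 86.6 CPM at L6, against 128.1 and 134.9 CPM in DS (−0.61 ± 0.11, adjusted p = 4.18e-06), and it was higher at L26 than at L6 by 0.46 ± 0.12 (adjusted p = 0.00418). The ACR of a second tRNA-Ser gene, AT4G24565, had a high level without a call over the stages, between 99.7 and 140.2 CPM in the 8 libraries (adjusted p over all stages 0.525). The tRNA-Pro gene AT1G70050 had 127.4 and 141.9 CPM at L26, against 102.7 and 96.0 CPM at L6 (0.44 ± 0.12, adjusted p = 0.0042). With TMM factors the rises at L26 against L6 were not called, for AT1G75570 at 0.16 (adjusted p = 0.455) and for AT1G70050 at 0.14 (adjusted p = 0.501).

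At snRNA genes, 12 of 14 ACRs differed over the stages. At L6 against DS 5 were higher and 2 lower (35.7% and 14.3%, beside 17.6% and 14.3% of all ACRs). At L26 against L6 3 were higher and 0 lower (21.4% and 0%, beside 8.71% and 7.91%). At L57 against L26 1 was higher and 3 lower (7.14% and 21.4%, beside 7.53% and 6.19%). At L57 against DS 6 were higher and 2 lower (42.9% and 14.3%, beside 17% and 12.2%). The balance at L57 against DS depended on the scaling, with 4 higher and 5 lower with TMM factors, 5 and 5 with DESeq2's size factors or total counts, and 2 and 4 in DESeq2's test. So did that at L26 against L6, with 1 higher and 5 lower with TMM factors. Both U1 genes opened at L6. U1 pairs with the 5′ splice site at the first step of intron recognition. U1.4 (AT5G04105, chr5:8972136-8973208) had 45.1 and 45.5 CPM in DS, 114.7 and 123.5 CPM at L6, 142.0 and 141.0 CPM at L26 and 79.5 and 92.5 CPM at L57. U1.9 (AT5G04315, chr5:9493943-9494910) had 36.2 and 37.5 CPM in DS, 92 and 95 CPM at L6, 127.0 and 140.6 CPM at L26 and 91.9 and 65.7 CPM at L57. In both, the L6 and L26 libraries lay above every DS library. The rise at L6 against DS was 1.39 ± 0.13 for U1.4 (adjusted p = 2.66e-19) and 1.34 ± 0.14 for U1.9 (adjusted p = 1.65e-15), and both fell at L57 against L26, by 0.71 ± 0.14 (adjusted p = 0.000133) and 0.79 ± 0.15 (adjusted p = 4.69e-05). The fall of U1.9 had an adjusted p of 0.0674 without L57 replicate 2.

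The genes of the minor spliceosome, which removes a rare class of introns, did not move together. U12 (AT1G61275, chr1:22602821-22603389), which recognises the branch point of those introns, rose early, with 85.8 and 89.0 CPM at L6, against 39.5 and 40.4 CPM in DS (1.13 ± 0.15, adjusted p = 4.23e-11), and had 72.5 and 79.7 CPM at L26 and 52.6 and 69.2 CPM at L57. U4atac (AT4G06375, chr4:9096003-9097987) stood between 86.9 and 102.4 CPM in the 6 libraries of DS, L6 and L26 and rose to 178.8 and 155.0 CPM at L57 (0.75 ± 0.13 against L26, adjusted p = 9.65e-06). The L57 libraries were above all 6 others. U6atac2 (AT1G05673), named here after its values were seen, lay between 39.2 and 59.6 CPM in all 8 libraries, with an adjusted p over all stages of 0.73.

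U2 snRNA, which binds the branch point in the major spliceosome, had 7 members, and they differed in direction. U2.7 (AT5G61455) had the highest level of the snRNA ACRs, and its 194.6 and 188.6 CPM at L6 were below its 219.0 and 241.3 CPM in DS (−0.26 ± 0.09, adjusted p = 0.0141). U2.10b/12 (AT2G04455) also fell at L6, to 131.0 and 103.1 CPM, against 163.3 and 149.5 CPM in DS (−0.42 ± 0.11, adjusted p = 0.0011). With TMM factors neither fall was called, with −0.12 for U2.7 (adjusted p = 0.368) and −0.27 for U2.10b/12 (adjusted p = 0.0631). U2.14 (AT1G05057) rose, with 142.4 and 137.5 CPM at L6, against 104.2 and 104.8 CPM in DS (0.42 ± 0.11, adjusted p = 0.00107). Of the 9 U1 and U2 ACRs together, 4 were higher and 2 lower at L6 against DS (44.4% and 22.2%, beside 17.6% and 14.3% of all ACRs). At L26 against L6 3 were higher and 0 lower (33.3% and 0%, beside 8.71% and 7.91% of all ACRs). With TMM factors or DESeq2's size factors 1 was higher and 4 were lower, so the direction of this step depended on the scaling. U6.29 (AT5G06815, chr5:18804236-18805135), whose RNA sits in the catalytic centre of the spliceosome, was lower at L57, with 31.0 and 29.3 CPM, against 54.0 and 62.4 CPM in DS (−0.95 ± 0.21, adjusted p = 6.98e-05). A second U6 gene, U6-29 (AT5G46315), had 17.1 and 14.2 CPM at L57, against 8.31 and 9.28 CPM in DS (0.82 ± 0.32, adjusted p = 0.0438), and without 1 of these 4 libraries the adjusted p was between 0.0908 and 0.228.

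**Figure D3:**
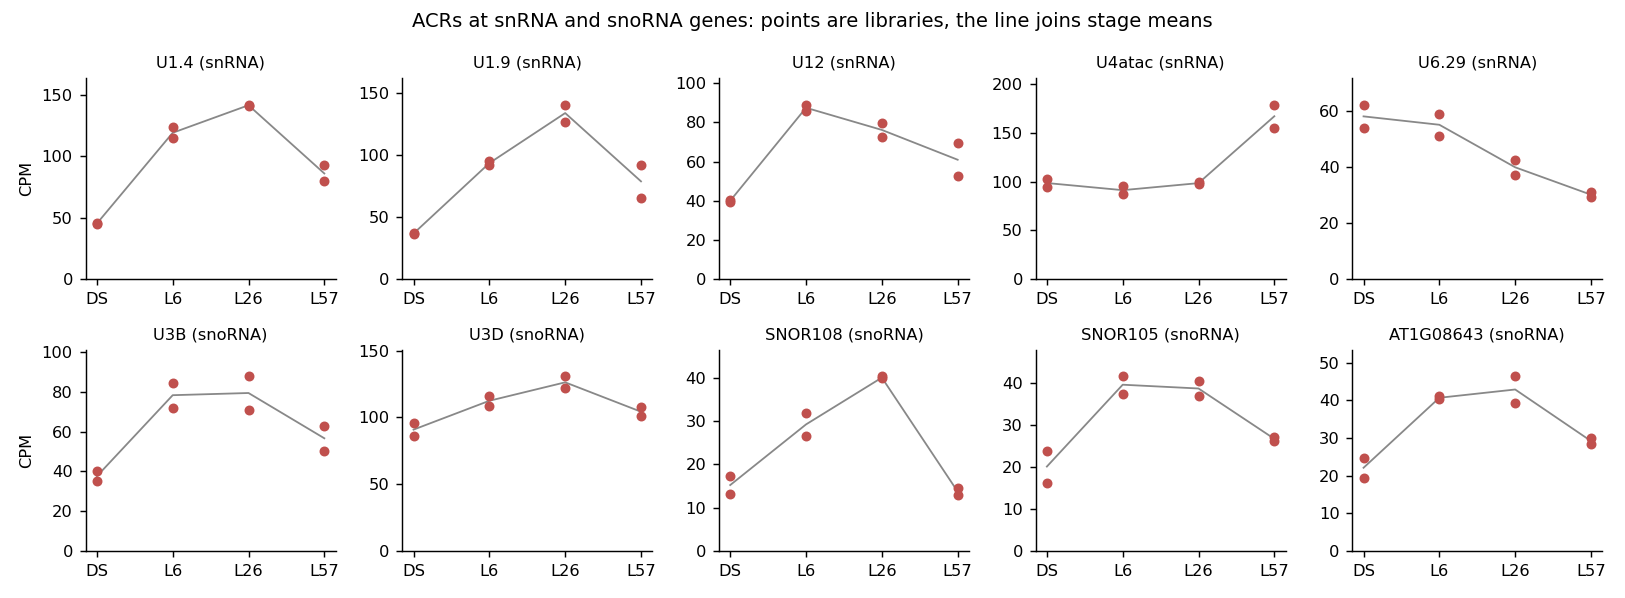
Points are the CPM of single libraries (2 per stage) at 5 snRNA and 5 snoRNA genes, each panel with its own axis starting at 0, and the line joins the stage means. U1.4, U1.9, U12, U3B, SNOR108, SNOR105 and AT1G08643 are lowest in DS or near it and high at L6 and L26, U4atac is highest at L57 and U6.29 is lowest at L57.

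At snoRNA genes, 5 of 6 ACRs were higher at L6 than in DS and 0 lower (all ACRs 17.6% and 14.3%). Their median log2 fold change was 0.91. The count was 5 and 0 at an unadjusted p under 0.05 and with DESeq2's test as well. It was 4 with GC-corrected offsets and 3 without DS replicate 2. U3 snoRNA is needed for the first cuts of the ribosomal RNA precursor. U3B (AT5G53902, chr5:21887951-21888686, in an intron of AT5G53905 on the other strand) had 40.0 and 35.2 CPM in DS, 84.6 and 72.2 CPM at L6, 87.9 and 71.1 CPM at L26 and 63.1 and 50.3 CPM at L57. It rose at L6 against DS by 1.06 ± 0.15 (adjusted p = 2.65e-09) and fell by 0.49 ± 0.18 at L57 against L26 (adjusted p = 0.0473). U3D (AT5G54075, chr5:21945016-21946125), whose ACR also lies in the promoter of HGO, a tyrosine catabolism gene, rose less, with 108.6 and 116.2 CPM at L6, against 95.6 and 86.1 CPM in DS (0.31 ± 0.12, adjusted p = 0.03). Without a single library the fall of U3B had an adjusted p of up to 0.441 (L57 replicate 2) and the rise of U3D one of up to 0.361 (DS replicate 2).

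At L57 against L26 0 of the 6 snoRNA ACRs were higher and 2 lower (all ACRs 7.53% and 6.19%). At L57 against DS 1 was higher and 1 lower (all ACRs 17% and 12.2%). The other 3 snoRNA genes that rose at L6 were SNOR108, SNOR105 and AT1G08643. SNOR108 (AT5G41471, chr5:16598465-16599007) had 17.3 and 13.1 CPM in DS, 26.6 and 31.8 CPM at L6, 40.3 and 39.8 CPM at L26 and 13.0 and 14.5 CPM at L57. It rose by 0.95 ± 0.24 at L6 against DS (adjusted p = 0.000863, and 0.0574 without DS replicate 2) and fell by 1.53 ± 0.28 at L57 against L26 (adjusted p = 2.18e-05), to a level close to that of the DS libraries. SNOR105 (AT1G29071, chr1:10151570-10152216) had 37.5 and 41.6 CPM at L6, against 16.3 and 23.9 CPM in DS (0.97 ± 0.21, adjusted p = 7.92e-05), and its mean at L57 was 26.7 ± 0.743 CPM (SD, n = 2). AT1G08643 (chr1:23700839-23701368) had 41.2 and 40.3 CPM at L6, against 19.5 and 24.8 CPM in DS (0.88 ± 0.20, adjusted p = 0.000256). The sixth, AT2G09680, was at 56.6 and 50.8 CPM at L6, against 52.5 and 56.6 CPM in DS, and it was lower at L57 than in DS by 0.54 ± 0.20 (adjusted p = 0.0249, and 0.155 without L57 replicate 2).

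Promoter ACRs of protein genes that assemble snoRNAs or trim non-coding RNAs were looked up for context. Of 15 genes in the list 10 had a promoter ACR. At L6 against DS 5 were higher and 0 lower, and at L26 against L6 1 was higher and 5 lower. Of all ACRs in protein-coding promoters, 21.8% were higher and 8.85% lower at L6 against DS, and 6.51% and 9.51% at L26 against L6. The promoter of FIB2, a fibrillarin that methylates ribosomal RNA, rose by 0.70 ± 0.12 at L6 (adjusted p = 8.69e-07), and that of NUC-L1, a nucleolin of the nucleolus, by 0.50 ± 0.11 (adjusted p = 0.000148). The promoter of AT5G27120, a NOP58 gene of the snoRNA particle, rose by 0.78 ± 0.19 (adjusted p = 0.000731). These L6 rises were measured in the same libraries as those of the snoRNA genes.

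At miRNA genes, MIR8184 stood apart in size. Its ACR (AT5G01755, chr5:3311803-3312365) had its summit 1 bp from the annotated 5′ end of the precursor. It had 84.3 and 85.3 CPM in DS, 16.4 and 16.7 CPM at L6, 16.4 and 14.1 CPM at L26 and 19.0 and 11.9 CPM at L57. Both DS libraries were far above all 6 others. The ACR fell by 2.35 ± 0.19 at L6 against DS (adjusted p = 1.54e-23), the largest fall of a member in that comparison, and by 2.48 ± 0.23 at L57 against DS (adjusted p = 1.74e-19). Between the light stages it was not called.

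The other miRNA ACRs that were called changed by less than MIR8184. MIR773a, whose miRNA targets a DNA methyltransferase mRNA, had 22.2 and 26.3 CPM at L26, against 14.0 and 12.9 CPM at L6 (0.86 ± 0.28, adjusted p = 0.0173), and at L57 it was higher than in DS by 0.86 ± 0.31 (adjusted p = 0.0245). MIR778, whose miRNA targets histone methyltransferase mRNAs, had 32.7 and 35.9 CPM at L57, against 24.3 and 20.6 CPM in DS (0.62 ± 0.24, adjusted p = 0.0381). MIR4221 had the highest level of the class and 51.4 and 50.8 CPM at L6, against 41.3 and 34.6 CPM in DS (adjusted p = 0.0439). MIR395b, of the family that acts in sulfate assimilation, was near the lower end of the levels, with 4.59 and 4.19 CPM at L6, against 8.33 and 7.54 CPM in DS (−0.85 ± 0.34, adjusted p = 0.0459). MIR160a, whose miRNA targets auxin response factor mRNAs, lay between 6.37 and 12.5 CPM in the 8 libraries and was not called in any of the 4 comparisons, and MIR5639 and MIR869 were not called either. The calls of MIR773a, MIR778, MIR4221 and MIR395b were each lost without any 1 of the 4 libraries compared, apart from that of MIR773a at L26 against L6 without L26 replicate 1, with adjusted p-values of up to 0.192 for MIR773a, 0.231 for MIR778, 0.355 for MIR4221 and 0.483 for MIR395b. In every fit that lost them the direction was kept.

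Of 24 genes of small RNA machinery in the list, 12 had a promoter ACR and 5 of these differed over the stages, where 55.9% of all ACRs in protein-coding promoters did. The promoter of AGO10, an ARGONAUTE of the shoot meristem, rose by 1.76 ± 0.33 at L6 against DS (adjusted p = 6.83e-06). Its level was low, with 11.4 and 12.2 CPM at L6, against 2.87 and 4.04 CPM in DS. The promoter of AGO1, the main miRNA effector, rose by 0.56 ± 0.14 (adjusted p = 0.000524). That of DCL3, which makes the small RNAs of DNA methylation, rose by 1.16 ± 0.34 (adjusted p = 0.0044). Its level was low too, with 4.19 and 4.86 CPM in DS. In this comparison 3 of the 12 were called higher and 0 lower, where 21.8% and 8.85% of all ACRs in protein-coding promoters were. Later the promoter of DCL4, which makes secondary small interfering RNAs, fell by 1.23 ± 0.37 at L26 against L6 (adjusted p = 0.0105). It rose by 1.37 ± 0.39 at L57 against L26 (adjusted p = 0.0092), from a low level of 7.76 and 4.91 CPM at L26. The promoter of AGO4, which acts in DNA methylation, fell by 0.73 ± 0.24 at L57 against L26 (adjusted p = 0.0249).

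At lncRNA genes, 379 of 538 ACRs (70.4%) differed over the stages. At L6 against DS 159 were higher and 57 lower (29.6% and 10.6%, beside 17.6% and 14.3% of all ACRs). At L26 against L6 the counts were 93 and 78 (17.3% and 14.5%, beside 8.71% and 7.91%). At L57 against L26 they were 40 and 55 (7.43% and 10.2%, beside 7.53% and 6.19%). At L57 against DS 170 were higher and 79 lower, of which 94 and 34 by 2-fold or more. Of all 30223 ACRs, 17% were higher and 12.2% lower in this comparison, and 2306 and 1535 by 2-fold or more. The ACRs in protein-coding promoters (112) had 28 higher and 10 lower at L57 against DS, and those outside (426) had 142 and 69. Of the 117 whose lncRNA overlaps a protein-coding gene on the other strand, 33 were higher and 8 lower in this comparison. Of the 23 in an intron, 10 were higher and 2 lower. In 342 lncRNA ACRs the summit was within 200 bp of the 5′ end of the RNA, and 107 of these were higher and 47 lower at L57 against DS. In the 196 farther away the counts were 63 and 32. Some of these subsets overlap. All had more higher than lower calls at L57 against DS, as did all ACRs, and differences between them were not tested.

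The largest rises at L6 against DS were at lncRNA genes. AT2G08950 (chr2:16051128-16053326, 2637 bp from the start of the abscisic acid receptor gene PYL4) had 32.6 and 29.4 CPM in DS, 144.8 and 166.8 CPM at L6, 190.4 and 157.8 CPM at L26 and 171.7 and 167.1 CPM at L57. It was open from L6 on, with a rise of 2.33 ± 0.13 at L6 against DS (adjusted p = 4.62e-40) and of 2.45 ± 0.14 at L57 against DS (adjusted p = 4.79e-37). AT1G09037 (chr1:25954980-25955379, 2394 bp from the start of the receptor kinase gene ACR4, which acts in the epidermis) had a like course, with 4.80 and 10.5 CPM in DS, 39.8 and 35.0 CPM at L6, 59.5 and 58.7 CPM at L26 and 42.7 and 38.9 CPM at L57 (2.28 ± 0.26 at L6 against DS, adjusted p = 7.08e-14). Others were open for a short time. AT1G04603 (chr1:2340850-2341115, 436 bp from the start of the metallothionein gene MT1C) had 25.5 and 25.1 CPM at L6, against 3.19 and 5.51 CPM in DS (2.52 ± 0.30, adjusted p = 1.35e-12), and then fell to 10.7 and 7.88 CPM at L26 (−1.47 ± 0.29 against L6, adjusted p = 4.77e-05, and 0.0555 in DESeq2's test). AT5G08655 (chr5:22994383-22994923, 3104 bp from the start of GNC, a GATA factor of chloroplast development) had 13.2 and 13.7 CPM in DS, 52.2 and 65.5 CPM at L6, 32.4 and 28.9 CPM at L26 and 20.0 and 21.0 CPM at L57, with a rise of 2.12 ± 0.21 at L6 against DS (adjusted p = 2e-17) and a fall of 0.95 ± 0.20 at L26 against L6 (adjusted p = 8.22e-05). Distances are to the nearest annotated start and do not show that the gene is under control of the region.

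The largest falls at L6 against DS at lncRNA genes were of ACRs open in dry seeds. AT1G09633 (chr1:28738886-28740904) had the highest mean level of the 649 ACRs in DS, with 366.7 and 368.8 CPM in DS, 110.7 and 102.1 CPM at L6, 83.9 and 97.1 CPM at L26 and 134.7 and 118.1 CPM at L57. It fell by 1.79 ± 0.09 at L6 against DS (adjusted p = 1.3e-42), and at L57 it was above L26 by 0.47 (adjusted p = 0.00925, but 0.14 with an adjusted p of 0.587 with TMM factors) and below DS by 1.55 ± 0.11 (−1.55, adjusted p = 7.26e-29). AT3G09525 (chr3:22555211-22556036) had 11.6 and 10.4 CPM at L6, against 50.6 and 44.2 CPM in DS (−2.10 ± 0.24, adjusted p = 5.24e-14). AT1G08027 (chr1:20496712-20497458) had 25.4 and 17.9 CPM at L6, against 79.3 and 77.1 CPM in DS (−1.85 ± 0.19, adjusted p = 3.51e-17). In all of these, no library of a light stage reached the level of a DS library.

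At L26 against L6, regions that had been low in the first stages opened. AT1G05373 (chr1:6219255-6219789) had 8.46 and 8.80 CPM in DS, 16.8 and 12.9 CPM at L6, 66.6 and 55.8 CPM at L26 and 52.6 and 44.8 CPM at L57, a rise of 2.03 ± 0.22 at L26 against L6 (adjusted p = 4.67e-14). AT1G09543 (chr1:28216572-28217164, in an intron of AT1G75180 on the other strand) had 50.6 and 47.9 CPM at L26, against 10.6 and 14.1 CPM at L6 (1.98 ± 0.24, adjusted p = 1.31e-11). AT3G05305, 1879 bp from the start of MYB21, a factor of flower development, had 31.6 and 33.7 CPM at L26, against 10.0 and 10.0 CPM at L6 (1.70 ± 0.28, adjusted p = 3.76e-07). AT2G09405 (chr2:17838046-17838692, 768 bp from the start of PAR1, a gene of the shade response) rose at both steps, with 30 and 28.5 CPM in DS, 63.2 and 71.1 CPM at L6, 138.7 and 160.0 CPM at L26 and 142.1 and 144.7 CPM at L57 (1.16 ± 0.13 at L26 against L6, adjusted p = 1.08e-13, and 2.29 ± 0.16 at L57 against DS, adjusted p = 1.81e-30).

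The largest fall at L26 against L6 was of AT4G06005 (chr4:7679033-7679440, 652 bp from the start of ROPGEF9, an activator of ROP GTPases). It had 4.37 and 2.26 CPM at L26, against 15.2 and 15.1 CPM at L6 (−2.23 ± 0.43, adjusted p = 2.12e-05), and its mean in DS was 26.8 ± 0.792 CPM (SD, n = 2). AT1G07843 (chr1:19698954-19699618, 879 bp from the start of the stress-induced factor gene NAC019) had 85.3 and 78.7 CPM in DS, 111.1 and 124.2 CPM at L6, 47.7 and 44.3 CPM at L26 and 35.8 and 38.8 CPM at L57, and fell by 1.36 ± 0.15 at L26 against L6 (adjusted p = 7.37e-14). Its L6 libraries were the highest and its L57 libraries the lowest.

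At L57 against L26, the largest rise was at AT5G08735 (chr5:23353836-23354141, 1346 bp from the start of the CONSTANS-like gene COL5), with 26.9 and 23.4 CPM at L57, against 6.31 and 3.75 CPM at L26 (2.35 ± 0.35, adjusted p = 1.2e-07). All 6 earlier libraries lay between 3.75 and 10.9 CPM. The largest fall was of AT1G07197 (chr1:16560355-16561102), which was open in the middle of the series, with 23.7 and 30.3 CPM in DS, 90.6 and 95.7 CPM at L6, 65.2 and 52.2 CPM at L26 and 12.4 and 12.4 CPM at L57 (1.78 ± 0.16 at L6 against DS, adjusted p = 1.07e-19, and −2.23 ± 0.27 at L57 against L26, adjusted p = 1.6e-11). AT5G07805 (chr5:21023419-21024180, 2809 bp from the start of AHG1, a phosphatase gene of abscisic acid signalling in seeds) fell at both later steps, with 78.7 and 81.7 CPM in DS, 74.2 and 57.6 CPM at L6, 35.6 and 33.9 CPM at L26 and 9.16 and 12.4 CPM at L57. At L57 it was lower than in DS by 2.87 ± 0.25 (−2.87, adjusted p = 1.33e-21). AT2G08315, 809 bp from the start of CYP707A2, which breaks down abscisic acid, had 2.97 and 13.6 CPM at L57, against 22.2 and 27.3 CPM at L26 (−1.51, adjusted p = 0.00114), and without L57 replicate 1 the adjusted p was 0.183 and in DESeq2's test 0.0846.

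**Figure D4:**
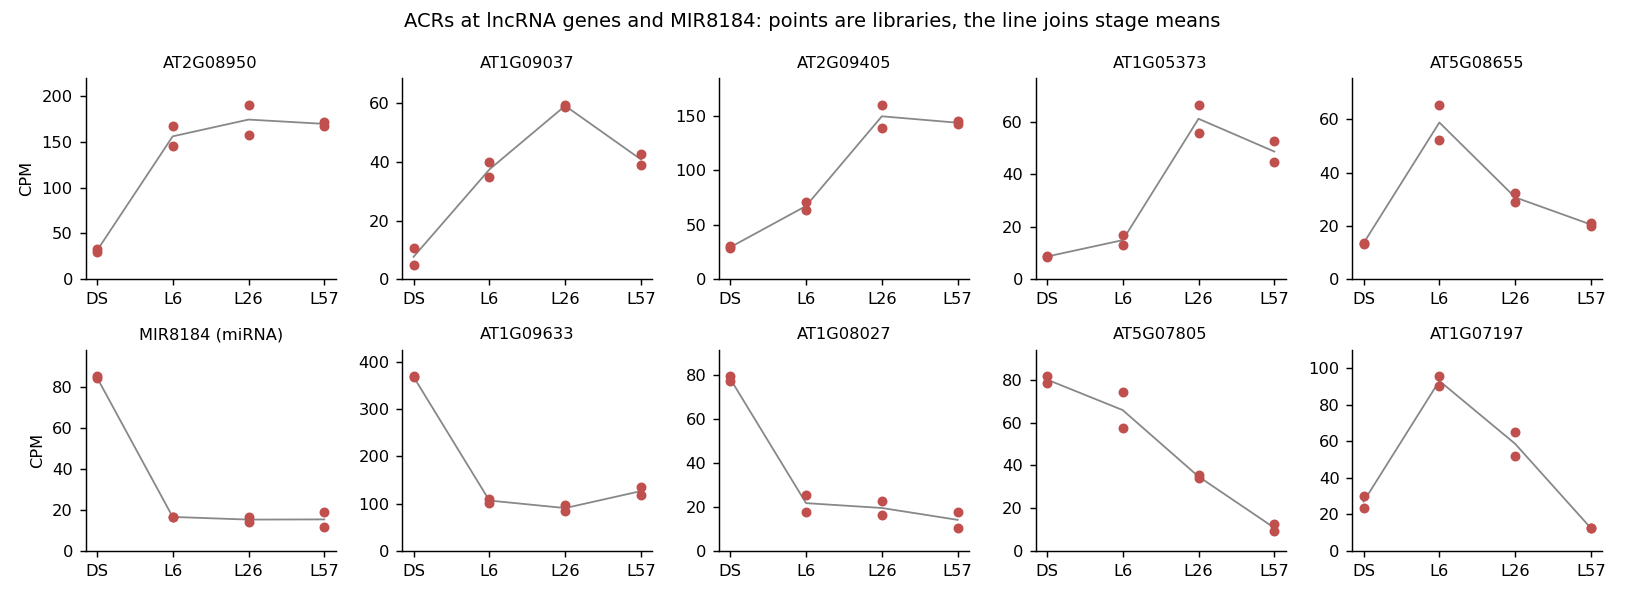
Points are the CPM of single libraries (2 per stage) at 9 lncRNA genes and MIR8184, each panel with its own axis starting at 0, and the line joins the stage means. AT2G08950, AT1G09037, AT2G09405 and AT1G05373 are low in DS and high at L57, AT5G08655 and AT1G07197 are highest at L6, and MIR8184, AT1G09633, AT1G08027 and AT5G07805 are highest in DS.

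The lncRNA ACRs of highest level differed in their course. AT1G05197, in the promoter of the corepressor gene TPL, lay between 206.2 and 242.4 CPM in the 8 libraries (adjusted p over all stages 0.62). AT1G04453 had the highest level of all members, at 350.1 and 338.6 CPM in DS, 306.2 and 296.5 CPM at L6, 267.8 and 273.3 CPM at L26 and 294.8 and 242.3 CPM at L57. It was lower at L57 than in DS by 0.37 ± 0.09 (adjusted p = 0.00045, and 0.301 without L57 replicate 2). At L6 it was lower than in DS by 0.19 ± 0.08 (adjusted p = 0.0439), a call that was lost with TMM factors (adjusted p = 0.649) and in several other fits.

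The lncRNA ACRs with a G-box had a different balance of calls. At L57 against DS, 27 of the 115 with a G-box were higher (23.5%) and 35 lower (30.4%), with a median log2 fold change of −0.10. Of the 423 without it, 143 were higher (33.8%) and 44 lower (10.4%), with a median of 0.25. At L57 against L26 the calls were 3 higher and 18 lower with a G-box (2.61% and 15.7%), and 37 and 37 without (8.75% each). At L26 against L6 they were 15 and 27 with it (13% and 23.5%), and 78 and 51 without (18.4% and 12.1%). At L6 against DS both sets had more higher than lower calls, 41 and 23 with a G-box (35.7% and 20%), and 118 and 34 without (27.9% and 8.04%). With GC-corrected offsets, however, the G-box set had 26 higher and 29 lower. The balance without a G-box at L26 against L6 was also lost under other settings, with 73 higher and 77 lower with DESeq2's size factors, 78 and 73 with TMM factors, and 41 and 41 in DESeq2's test. At L57 against L26 it was 31 and 52 with TMM factors and 43 and 30 with GC-corrected offsets. Of the lncRNA ACRs with a G-box 30.4% had their highest mean level in DS, and of those without 14.9%. The difference between the sets was not tested. All ACRs with a G-box had 16.2% higher and 23.5% lower at L57 against DS, and all ACRs without it 17.1% and 10.6%. At L57 against L26 these shares were 4.71% and 9.77% with it, and 7.92% and 5.69% without. For L26 against L6 they were 9.36% and 13.5% with it, and 8.62% and 7.14% without. For L6 against DS they were 21.9% and 16.1% with it, and 17% and 14.1% without. The lncRNA ACRs with a G-box also had a higher median level, 50.7 CPM, against 27.3 CPM without, and the part of this in the counts was not tested. Without L57 replicate 1 the median with a G-box at L57 against DS was 0.04, with 24 higher and 30 lower, and in the other fits it stayed below 0. AT1G09633, AT3G09525 and AT5G07805, whose G-boxes are shown above, were highest in DS, and AT1G07197 and AT1G07843 were highest at L6.

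**Figure D5:**
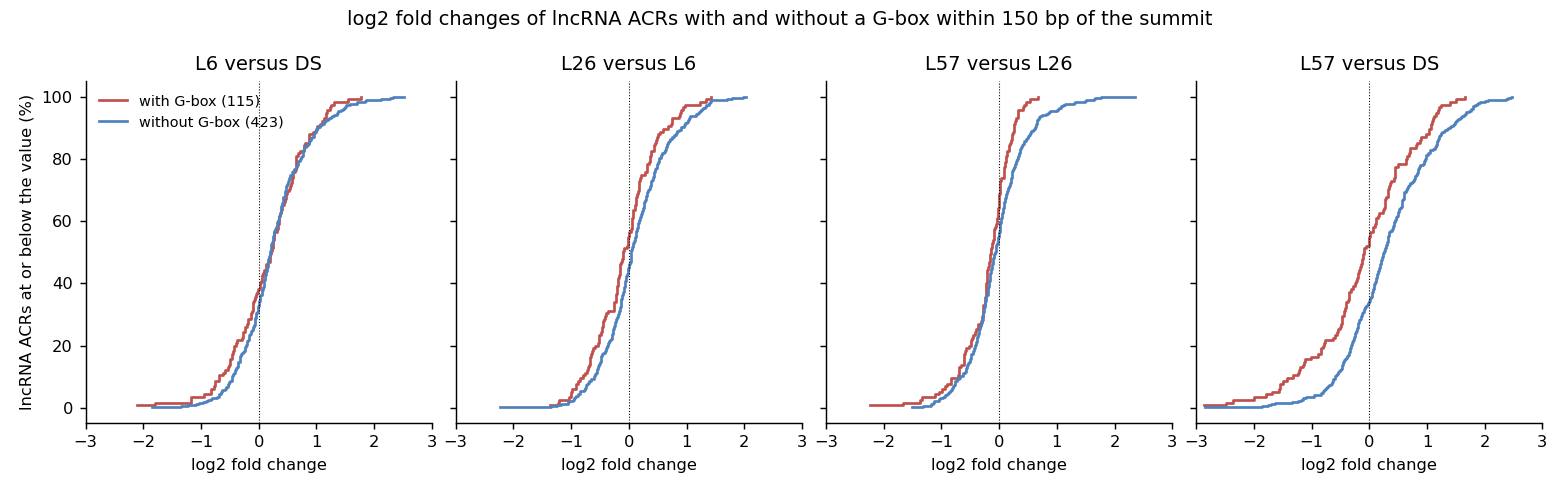
The share of lncRNA ACRs at or below each log2 fold change is drawn for the 115 with a G-box within 150 bp of the summit (red) and the 423 without (blue), in each comparison. The red curve lies left of the blue one at L57 versus DS, where the medians are −0.10 and 0.25. At L6 versus DS the medians nearly coincide, at 0.21 and 0.20. There 35.7% with a G-box were called higher and 20% lower, and 27.9% and 8.04% without.

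Of the 2 genes typed as antisense RNA, AT4G00975 had 106.4 and 104.0 CPM at L6, against 67.2 and 72.0 CPM in DS (0.60 ± 0.13, adjusted p = 6.04e-05), and AT2G08915 was not called over the stages (adjusted p = 0.374). Of the 38 other non-coding RNAs, 7 were higher (18.4%) and 1 lower (2.63%) at L6 against DS, where 17.6% and 14.3% of all ACRs were. At L57 against L26 2 were higher (5.26%) and 6 lower (15.8%), beside 7.53% and 6.19% of all ACRs. AT5G33439 was the 1 that fell at L6, to 43.5 and 37.9 CPM, against 77.5 and 78.6 CPM in DS (−0.94 ± 0.16, adjusted p = 2.22e-07). AT1G04867 (chr1:3943267-3943550) was higher at the end of the series, with 27.9 and 20.2 CPM at L57, against 8.00 and 5.53 CPM in DS (1.81 ± 0.30, adjusted p = 1.8e-07).

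Marker genes of the tissues were read from their promoter ACRs. All 5 seed maturation genes had one, 4 of them fell at L6 against DS, and LEC1, a regulator of embryo development, rose by 1.81 ± 0.24, with 39.1 and 35.9 CPM at L6, against 9.86 and 11.4 CPM in DS. The summed level of the 5 was 941.6 and 902.4 CPM in DS, 408.2 and 423.4 CPM at L6, 315.2 and 305.8 CPM at L26 and 312.0 and 321.0 CPM at L57. All 4 photosynthesis genes were higher at L57 than in DS, with sums of 431.4 and 409.6 CPM at L57, against 203.9 and 197.2 CPM in DS. Of 10 seed coat genes 3 had a promoter ACR, with a summed level of 64.1 and 68.2 CPM in DS, 73.1 and 75.1 CPM at L6, 106.9 and 117.3 CPM at L26 and 85.4 and 95.9 CPM at L57, and the other 7 had none. Of 8 endosperm genes 0 had one. The seed coat sum was highest in the L26 libraries, but the 3 genes differed. The mean of TTG2 was 66.1 CPM at L26 and 44.1 CPM at L57. That of TT8 was 22.8 and 23.9 CPM, and that of MUM4 23.2 and 22.7 CPM. Of the 18 tRNA ACRs outside protein-coding promoters, 15 also had their highest mean at L26, and the part of seed coat in that result was not tested.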

How the data were processed

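The authors deposited a count table and a CPM table of 30223 ACRs in 8 libraries. The deposited counts are reads per ACR, and the deposited CPM were scaled by the authors with csaw offsets that follow abundance. The deposited peak file gives each ACR's position and summit, and its score and signal columns were not used. Per the methods and the submitters' notes reads were trimmed with fastp 0.23.4 and aligned to TAIR10 with Bowtie2 2.4.4, organellar, blacklisted and poorly mapped reads were dropped with SAMtools 1.14, duplicates were removed with Genrich 0.6.1, and peaks from MACS3 3.0.0b3 that occurred in both libraries of a stage were merged. The notes also name R 4.3.1 and bedtools 2.30.0.

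Offsets were recomputed with limma 3.58.1 (loess span 0.3) and differed from the deposited scaling by at most 1.9e-12, apart from 2 ACRs with a count of 0. Genes came from the RefSeq TAIR10.1 annotation, whose nuclear chromosomes have the lengths of TAIR10. edgeR 4.0.16 in R 4.3.3 (glmQLFit, glmQLFTest) fitted all 30223 ACRs with 1 factor of stage, with Benjamini-Hochberg adjustment over all ACRs. edgeR's filter on low counts kept all of them. DESeq2 1.42.0 served as an alternative. Transcripts typed as misc_RNA only (96 ACRs) were left out, and a class named other non-coding RNA was kept. Named genes were the 5 largest rises and falls per comparison (adjusted p under 0.05, mean of at least 10 CPM, libraries not overlapping), the 3 highest levels per class, up to 6 smallest p-values per small class, and loci from a list, of which the text prints a subset. Members, gene lists and motifs were chosen with earlier results of these data known. Scripts were tested on simulated data.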

Additional observations from a re-analysis of the deposited data

How the results depend on the processing

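The counts over all members and over the tRNA, snRNA, snoRNA and miRNA classes and the lncRNA ACRs with and without a G-box were recomputed with other scaling, tests, filters and libraries. Those of the tRNA-Gly genes, the lncRNA subsets by position and the other classes were not. With 2 libraries a stage and the lowest counts at L57, calls that involve L57 are the least precise, and many counts moved by over 1.5 times. With DESeq2's test 23 of the 649 members were lower at L6 against DS, where 4.29% of all ACRs were. It called 54 members higher at L26 against L6 (all ACRs 3.58%) and 20 at L57 against L26 (all ACRs 2.7%). With DESeq2's size factors 131 were lower at L26 against L6 (all ACRs 10.7%). With TMM factors 110 were lower at L57 against L26 (all ACRs 8.53%). Scaling to total counts moved the median log2 fold change of all ACRs to −0.08 at L6 against DS and 0.10 at L26 against L6. With only ACRs above the median level, 70 were higher at L26 against L6, 24 at L57 against L26 and 127 at L57 against DS. The same 414 members had 65, 24 and 124 in the main fit, so the refit itself moved these counts little. Leaving out a library gave 124 to 198 higher and 43 to 65 lower at L6 against DS, 58 to 107 and 57 to 80 at L26 against L6, 21 to 41 and 27 to 72 at L57 against L26, 135 to 192 and 63 to 95 at L57 against DS, and 398 to 438 called over all stages. Other causes were not tested. The number of ACRs was 2036 when any overlap with a non-coding exon counted, 1485 when the summit also had to be in no protein-coding exon (chosen after seeing the data), and 1120 when the summit could lie within 100 bp of the exon. Replicate numbers did not pair the libraries, since deviations of same-numbered libraries correlated between −0.0405 and 0.0231, and a fit with a replicate block gave 188 higher and 60 lower at L6 against DS, 106 and 79 at L26 against L6, 42 and 70 at L57 against L26, 192 and 94 at L57 against DS, 442 over all stages and 12 protein genes of the 2 machinery lists (12 without the block, 10 to 13 without a library). Of all 140 calls at the 73 members named by the rule, 61 were lost under at least 1 alternative and 0 turned to a call in the other direction. Of the 40 largest rises and falls, 4 lost their call under at least 1 alternative (5 of 705 alternative values), and 0 changed direction. These 40 had been picked for their size, adjusted p and libraries that do not overlap. Their calls were therefore bound to hold better, and the 2 counts cannot be compared.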
